A study of Mus musculus with 12 samples.

Results

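The genes described here encode the entry machinery of the endoplasmic reticulum (ER): the signal recognition particle and its receptor, the Sec61 translocon with its partners, signal peptidase, oligosaccharyltransferase and a few membrane proteins of the rough ER. A gene was included where a probe set carried its symbol and no other, and where a gene had several such probe sets the brightest over the 12 arrays was used. Of 38 genes listed, 36 were measured in this way, out of 22180 genes with such a probe set. Srp54a was skipped because its probe sets also carried the symbols of Srp54b and Srp54c, and Hm13 was skipped because the platform names it by the older symbol H13. The arrays were hybridised with RNA of mouse brown adipose tissue, 3 arrays in each of 4 groups, and every mouse had gone without food for 5 h before the tissue was taken. The first group comprised Sel1L knockout mice at 4 °C and the second their Sel1L f/f littermates, called controls, at 4 °C. The third comprised Sel1L knockout mice at room temperature and the fourth Sel1L f/f controls at room temperature. The sample titles call the controls wildtype and the knockouts adipocyte-specific Sel1L-deficient. All mice were on the C57BL/6J background and all carried the floxed Sel1L alleles. The knockouts also carried the Adipoq-cre transgene, in which the adiponectin promoter drives Cre in adipocytes, so other cells of the tissue are not targeted. The sources used here give neither age nor sex of the mice. The labels number the replicates within a group. They do not say whether each replicate is a separate mouse or how the mice were chosen. A p-value here therefore speaks only of how far these arrays vary among themselves.

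Most proteins that are secreted or sit in membranes enter the ER while they are being made. The signal recognition particle binds the signal sequence of the growing chain and docks at the SRP receptor, the ribosome is passed to the Sec61 channel, signal peptidase removes the signal sequence, and oligosaccharyltransferase attaches a preassembled glycan to asparagine residues. Genes of this machinery are known targets of the unfolded protein response, in particular of its transcription factor XBP1, and Sel1L works with the ubiquitin ligase Hrd1 in clearing misfolded proteins from the ER.

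The targeted gene was read first, as a check of the labels. Sel1l had log2 values of 6.90, 6.73 and 6.54 in the knockout-labelled arrays at 4 °C, against 6.99, 6.69 and 7.04 in the controls at 4 °C, and the groups overlapped (log2 difference -0.19 ± 0.14 SE, limma adjusted p = 0.605). At room temperature it had 6.18, 6.09 and 5.92 in knockout-labelled arrays, against 7.37, 6.96 and 7.23 in controls, and fell by 1.12 ± 0.14 (adjusted p = 0.00114). The Sel1l probe set therefore checked the genotype labels at room temperature and did not check them at 4 °C. The sources used here do not say whether its probes lie in the deleted part. Control replicate 3 at room temperature is labelled 4 °C in one of its fields. Of 746 probe sets that differed at least 2-fold between the other controls at the 2 temperatures, it lay nearer to room temperature in 654 and nearer to 4 °C in 92, and it was kept at room temperature. Ucp1, which marks brown adipocytes, read 12.38 to 12.83 on all arrays. Skeletal muscle transcripts varied widely. The mean log2 value of 19 muscle markers was 2.48 to 6.46 in knockouts and 4.71 to 7.72 in controls at 4 °C, and 2.80 to 6.13 in knockouts and 6.14 to 7.08 in controls at room temperature. None of the 19 passed the test in either genotype comparison, where the spread within groups was wide. All 19 were nevertheless lower in knockouts at room temperature, with a median log2 difference of -2.29. At 4 °C all but 1 were lower, with a median of -0.98. Of 10 brown adipocyte markers, Ppara, Ppargc1a and Pparg were lower in knockouts at 4 °C, where the mean of the 10 was 8.96 to 8.99 in knockouts and 9.35 to 9.43 in controls, and 0 were called at room temperature. The part of these markers in the results was not tested. Markers of B and plasma cells, which are rich in this machinery, averaged 2.08 to 2.53 per array, beside array medians of 2.03 to 2.09 over all probe sets. Of the 8, 0 passed in either genotype comparison. That average hides Ighm, which read 4.23 to 6.82. Its means were 5.99 in knockouts and 5.22 in controls at 4 °C, and 5.16 and 5.72 at room temperature. Jchain read 1.75 to 3.67. The part of these cells in the results was not tested either. In bulk tissue, fewer cells of a type and less RNA per cell cannot be told apart.

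At 4 °C, 31 of the 36 genes were higher in knockouts than in controls and 0 were lower, at a Benjamini-Hochberg adjusted p under 0.05 over all 23521 single-symbol probe sets in limma. Across all those probe sets 5.8% were called, 3.61% higher and 2.19% lower. The median log2 difference of the 36 genes was 1.27, beside -0.012 over all probe sets, and 20 of the 36 were at least 2-fold higher. At room temperature 22 genes were higher and 0 lower, against 1.72% of all probe sets called, 1.29% higher and 0.429% lower. The median there was 0.72, beside -0.0053 over all, and 10 genes were at least 2-fold higher. Of the 36 genes, 35 lay above the median brightness of the tested probe sets (2.27). Among the probe sets above that brightness the shares called higher were 6.97% at 4 °C and 2.53% at room temperature. At an unadjusted p under 0.05, 0 genes were lower at 4 °C (8.06% of all probe sets) and 1, Tusc3, at room temperature (6.22%). With the muscle score as a covariate 29 genes were higher at 4 °C and 14 at room temperature, with medians of 1.30 and 0.69. With control replicate 3 at room temperature moved to the 4 °C group, 14 were higher at room temperature.

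The arrays of a group lay close together over the whole set. After each gene was centred on its mean over the 12 arrays, the median of the 36 genes was 0.65 to 0.71 in the knockouts at 4 °C, against -0.64 to -0.47 in the controls at 4 °C. It was 0.26 to 0.40 in the knockouts at room temperature, against -0.44 to -0.37 in the controls at room temperature. Each knockout array therefore stood above each control array, and each knockout array at 4 °C above each at room temperature.

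**Figure D1:**
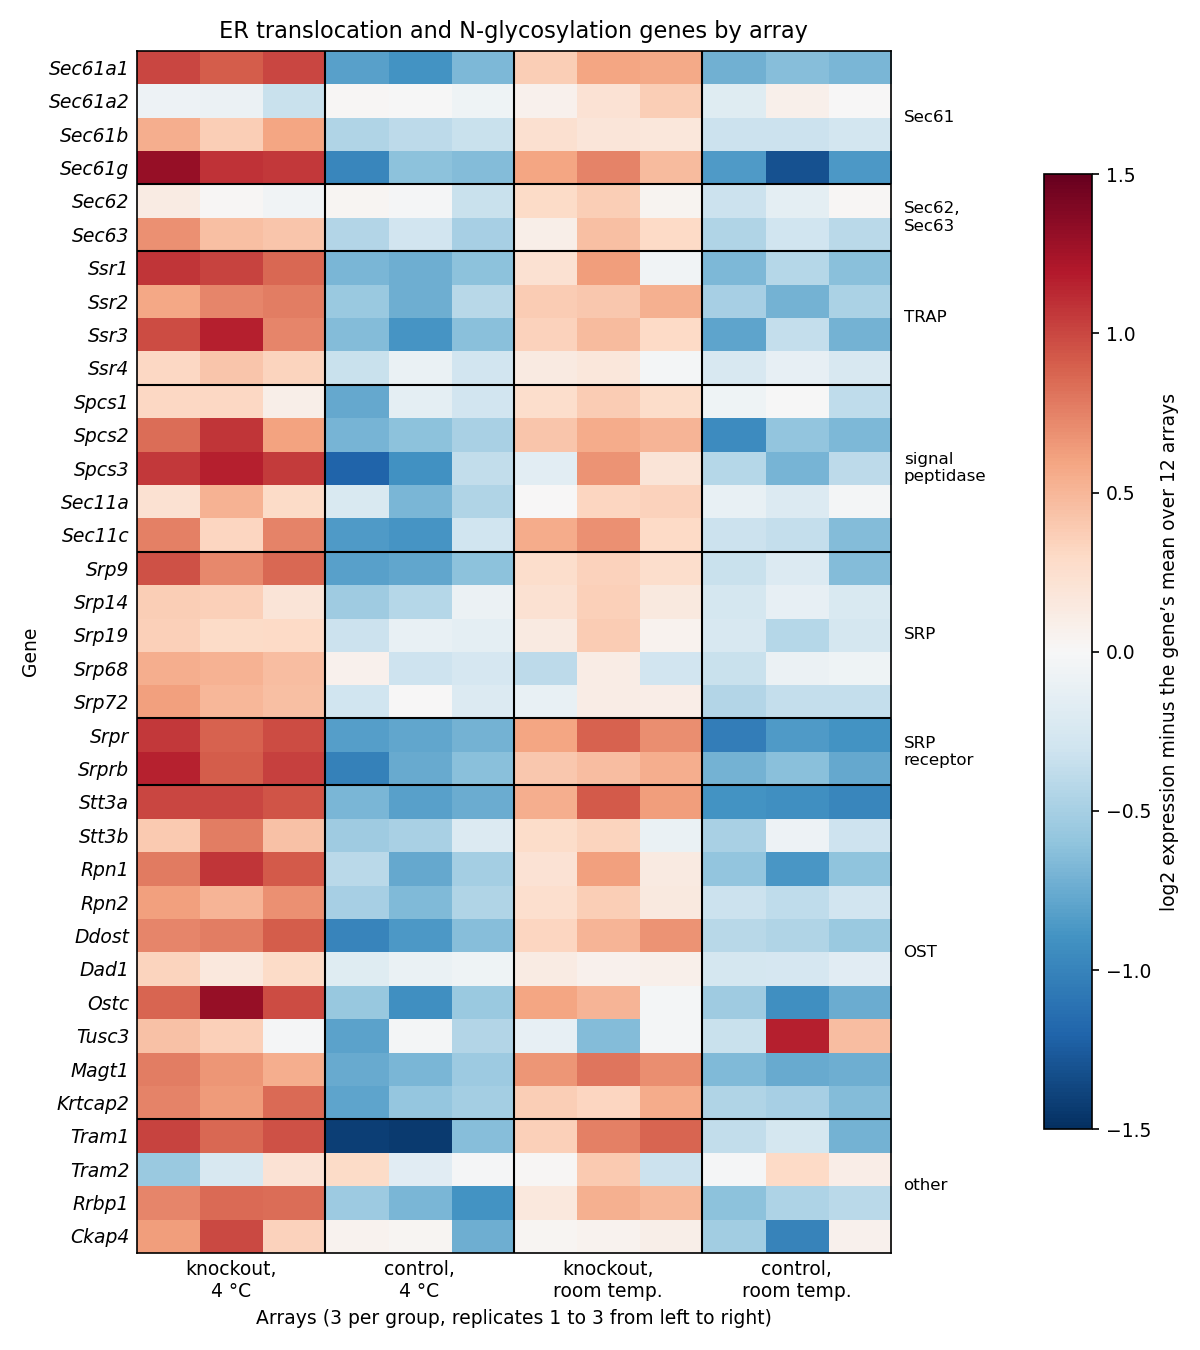
Log2 value of each of the 36 genes (rows, grouped by complex) on each of the 12 arrays (columns), centred on the gene's mean over all arrays, in colour. In 24 of the 36 rows all 6 knockout arrays are above the gene's mean and all 6 control arrays below it, and in the other 12, among them Sec61a2, Srp68, Tusc3, Tram2 and Ckap4, at least 1 array is on the other side.

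The 2 genotype comparisons share no arrays. All 22 genes called higher at room temperature were also among the 31 called higher at 4 °C, and 1.05% of all probe sets were called higher in both. The 9 genes called only at 4 °C were Ssr4, Spcs1, Spcs3, Sec11a, Srp14, Srp68, Srp72, Stt3b and Dad1. Sec61a2, Sec62, Tusc3, Tram2 and Ckap4 were called in neither. For 32 of the 36 genes the difference between genotypes was larger at 4 °C than at room temperature. The median of this change was 0.36, beside -4.1e-05 over all probe sets. When this change was tested gene by gene, as the interaction given below, 0 of the 36 passed. Across the 36 genes the 2 sets of differences correlated with a Pearson r of 0.778, which describes these genes only, since they were measured on the same arrays within each comparison. Non-overlap of the 3 knockout and 3 control values was seen, with knockouts above, for 33 genes at 4 °C (11.2% of all probe sets) and for 30 at room temperature (8.76%). With knockouts below, it was seen for 1 gene at 4 °C, Sec61a2 (10.7%), and for 0 at room temperature (8.62%).

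**Figure D2:**
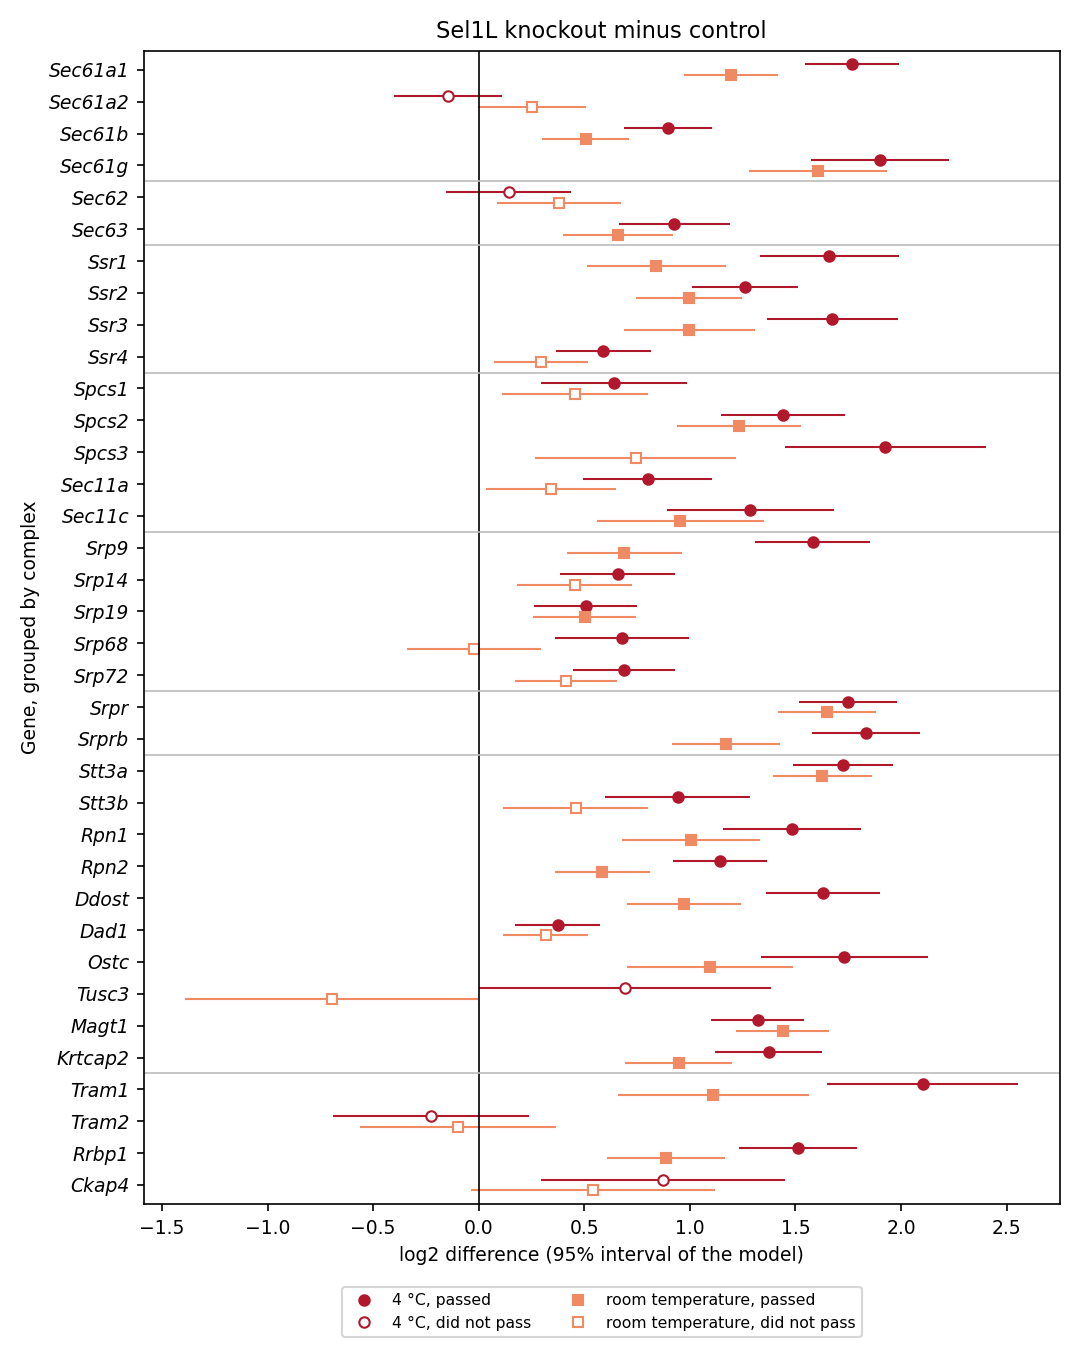
Log2 difference, knockout minus control, for each of the 36 genes at 4 °C and at room temperature, with the model's 95% interval, grouped by complex. Filled symbols passed the test, 31 at 4 °C and 22 at room temperature, and no gene passed on the lower side.

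Promoter sequences are shown because these genes rose together and many are described as targets of XBP1 and ATF6. RefSeq (GRCm38.p6) promoter windows, 250 bases before to 50 after a start, were given for 28 of the 38 listed genes, as 30 windows. Of the elements known for these factors, the ER stress response element (ERSE) was searched as CCAAT and CCACG with 9 bases of any kind between them, the second element (ERSE-II) as ATTGG and CCACG with 1 base of any kind between them, the core of the unfolded protein response element as TGACGTG and the shared end as CCACG alone, on both strands. The first 2 contain the shared end, so their matches are counted under it as well. CCACG was present in 19 of the 30 windows, beside 32.8% of all 32851 windows, and in 16 of the 30 when only the 250 bases before the start were read, beside 28.3% of all. The 18 genes with CCACG in a window included Sec61a2, Tram2 and Ckap4, which were called in neither genotype comparison. A link between CCACG and the differences was not tested. The full ERSE was found in 0 of the 30 windows and in 0.119% of all. ERSE-II was found in 1 window, of Krtcap2, from base 18 counted from the start (0.0365% of all), and TGACGTG in 1 window, of Srpr (2.01% of all). The 200 bases before the start follow for 6 of the genes with the largest differences that had a window, with CCACG or its complement CGTGG and TGACGTG in capitals, together with the Krtcap2 stretch, where capitals mark ERSE-II.
Srprb, chr9:103202066-103202265 (minus strand): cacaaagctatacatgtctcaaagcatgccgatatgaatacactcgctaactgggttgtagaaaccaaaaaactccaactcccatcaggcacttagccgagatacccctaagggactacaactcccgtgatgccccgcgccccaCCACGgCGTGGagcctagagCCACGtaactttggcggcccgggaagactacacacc
Srpr, chr9:35211003-35211202 (plus strand): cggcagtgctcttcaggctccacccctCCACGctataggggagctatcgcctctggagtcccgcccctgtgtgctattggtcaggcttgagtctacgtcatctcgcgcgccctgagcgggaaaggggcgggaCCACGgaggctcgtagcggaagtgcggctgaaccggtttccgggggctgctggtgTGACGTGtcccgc
Stt3a, chr9:36767623-36767822 (minus strand): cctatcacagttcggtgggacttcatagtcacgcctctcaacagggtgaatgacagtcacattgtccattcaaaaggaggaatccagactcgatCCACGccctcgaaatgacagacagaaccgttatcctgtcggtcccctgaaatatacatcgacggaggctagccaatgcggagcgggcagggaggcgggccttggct
Ssr3, chr3:65392554-65392753 (minus strand): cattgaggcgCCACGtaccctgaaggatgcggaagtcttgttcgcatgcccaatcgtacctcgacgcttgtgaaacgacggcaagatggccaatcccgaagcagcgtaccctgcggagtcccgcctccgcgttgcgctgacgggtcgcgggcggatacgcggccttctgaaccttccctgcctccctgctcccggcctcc
Ssr1, chr13:37994209-37994408 (minus strand): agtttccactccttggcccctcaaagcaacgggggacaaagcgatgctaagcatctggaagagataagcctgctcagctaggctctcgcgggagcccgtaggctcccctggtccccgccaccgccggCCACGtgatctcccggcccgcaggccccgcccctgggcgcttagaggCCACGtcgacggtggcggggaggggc
Sec61g, chr11:16508485-16508684 (minus strand): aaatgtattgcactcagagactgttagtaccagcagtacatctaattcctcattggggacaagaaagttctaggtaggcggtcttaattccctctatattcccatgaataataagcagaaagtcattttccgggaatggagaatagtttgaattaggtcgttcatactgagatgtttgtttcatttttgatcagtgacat
Krtcap2, chr3:89246481-89246509 (plus strand): gggacacggATTGGaCCACGgacggggcg
The stretch of Srprb holds 3 copies of CCACG on either strand, those of Srpr and Ssr1 hold 2 each and those of Stt3a and Ssr3 hold 1 each. Sec61g holds 0, which says only that these letters are not in this stretch. A match is a run of letters and was not tested for binding.

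Targeting to the ER is carried out by the signal recognition particle (SRP). All 5 measured SRP proteins were higher in knockouts at 4 °C, with a median log2 difference of 0.68, and 2 of the 5 were higher at room temperature, with a median of 0.45. Of all probe sets, 3.61% were called higher at 4 °C and 1.29% at room temperature, with medians of -0.012 and -0.0053. The same shares and medians apply to each complex below. Srp9, which with Srp14 forms the part that slows elongation of the nascent chain, read 6.48, 6.25 and 6.39 in knockouts at 4 °C and 4.71, 4.75 and 4.92 in controls at 4 °C. In the same gene the knockouts at room temperature read 5.79, 5.88 and 5.79 and the controls 5.20, 5.32 and 4.87. The groups did not overlap at either temperature, and the differences were 1.58 ± 0.13 (adjusted p = 5.82e-06) and 0.69 ± 0.13 (adjusted p = 0.0142). Its partner Srp14 differed by 0.66 at 4 °C and by 0.45 at room temperature, where it did not pass (adjusted p = 0.103). Srp68 and Srp72, which bind the SRP RNA as a pair, rose at 4 °C by 0.68 and 0.69. Srp68 gave 6.88, 6.86 and 6.80 in knockouts and 6.40, 6.02 and 6.09 in controls at 4 °C, but 5.95, 6.44 and 6.05 in knockouts and 5.99, 6.24 and 6.27 in controls at room temperature. The Srp68 groups were apart at 4 °C and overlapped at room temperature (difference -0.023, adjusted p = 0.975). Srp19, an assembly factor of the particle, rose by 0.51 at 4 °C and by 0.50 at room temperature. Without single arrays, limma adjusted p reached 0.0873 for Srp19 and 0.0641 for Srp68 at 4 °C, and 0.152 for Srp19 and 0.0567 for Srp9 at room temperature. Of the 12 fits that each left out 1 array, the call at 4 °C was lost in 4 for Srp19 and 3 for Srp68. At room temperature it was lost in 11 for Srp19 and 1 for Srp9.

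Both subunits of the SRP receptor were higher at both temperatures. Srpr encodes the alpha subunit, the GTPase that meets SRP at the membrane. It read 10.68, 10.51 and 10.60 in knockouts at 4 °C, against 8.80, 8.84 and 8.92 in controls at 4 °C. At room temperature Srpr read 10.22, 10.51 and 10.33 in knockouts, against 8.59, 8.78 and 8.73 in controls. Every knockout value exceeded every control value by more than 1 log2 unit, and the fold differences were 3.36 at 4 °C (log2 1.75 ± 0.11, adjusted p = 6.99e-07) and 3.14 at room temperature (log2 1.65 ± 0.11, adjusted p = 5.25e-06). Srprb encodes the beta subunit, which anchors the receptor in the membrane. Its values were 7.93, 7.68 and 7.80 in knockouts and 5.76, 6.01 and 6.14 in controls at 4 °C, and 7.17, 7.23 and 7.32 in knockouts and 6.06, 6.14 and 6.01 in controls at room temperature. The groups were apart at both temperatures, by 1.83 ± 0.12 at 4 °C (3.56-fold, adjusted p = 1.03e-06) and 1.17 ± 0.12 at room temperature (2.25-fold, adjusted p = 0.000138). A second probe set that carries both Trf and Srprb, and was not used for either, went the other way, with differences of -1.02 ± 0.19 at 4 °C and -0.95 ± 0.19 at room temperature.

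In the Sec61 channel, 3 of 4 genes were higher at both temperatures. Sec61a1 encodes the pore-forming alpha subunit. It measured 9.89, 9.79 and 9.88 in knockouts at 4 °C, against 8.07, 7.98 and 8.21 in controls, and at room temperature 9.25, 9.47 and 9.46 in knockouts, against 8.16, 8.24 and 8.20 in controls. No values overlapped, and the differences of 1.77 ± 0.10 (3.40-fold, adjusted p = 5.12e-07) and 1.20 ± 0.10 (2.29-fold, adjusted p = 4.45e-05) were many times the spread within groups. Sec61g, the small gamma subunit, measured 7.87, 7.64 and 7.62 in knockouts and 5.58, 5.95 and 5.91 in controls at 4 °C, and 7.16, 7.31 and 7.03 in knockouts and 5.72, 5.26 and 5.70 in controls at room temperature. Its groups were apart by 1.90 ± 0.15 at 4 °C (3.73-fold, adjusted p = 5.82e-06) and by 1.61 ± 0.15 at room temperature (3.05-fold, adjusted p = 9.05e-05). Near-identical copies of Sec61g exist, so its value is uncertain, and a dimmer probe set shared with 4 predicted genes gave 0.96 ± 0.14 at 4 °C and 0.64 ± 0.14 at room temperature. Sec61b, the beta subunit, was the dimmest of the 36 genes with a mean of 2.07 and rose by 0.90 at 4 °C and 0.51 at room temperature. This probe set reads near background, so the size of these differences is uncertain. The call for Sec61b at room temperature was lost without any of 4 single arrays (highest adjusted p = 0.0665), and with the mean over its 2 probe sets, where the difference was 0.29.

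Sec61a2, the second alpha subunit, was not called in either genotype comparison. It read 5.48, 5.47 and 5.23 in knockouts and 5.57, 5.55 and 5.49 in controls at 4 °C, and 5.62, 5.78 and 5.92 in knockouts and 5.37, 5.63 and 5.57 in controls at room temperature. The knockouts lay just below the controls at 4 °C and overlapped with them at room temperature, and neither difference passed (-0.15 ± 0.12, adjusted p = 0.62, and 0.25 ± 0.12, adjusted p = 0.395). Of the pair that assists translocation with the chaperone BiP, Sec63, the J-domain protein, rose by 0.93 ± 0.12 at 4 °C (adjusted p = 0.000427) and by 0.66 ± 0.12 at room temperature (adjusted p = 0.0145, and up to 0.0640 without single arrays). Its partner Sec62 differed by 0.14 ± 0.14 at 4 °C (adjusted p = 0.702) and by 0.38 ± 0.14 at room temperature (adjusted p = 0.224). The Sec62 arrays overlapped at 4 °C, with 8.21, 8.11 and 8.03 in knockouts and 8.11, 8.06 and 7.74 in controls. At room temperature they did not overlap, with 8.37, 8.45 and 8.12 in knockouts and 7.76, 7.93 and 8.10 in controls.

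The translocon-associated protein (TRAP) complex sits beside Sec61 and helps some signal sequences to open the channel. Its 4 subunits were all higher at 4 °C, with a median of 1.46, and 3 of 4 at room temperature, with a median of 0.92. Ssr3, the gamma subunit, read 9.49, 9.67 and 9.24 in knockouts and 7.86, 7.63 and 7.88 in controls at 4 °C, and 8.86, 8.98 and 8.81 in knockouts and 7.72, 8.14 and 7.80 in controls at room temperature. Ssr1, the alpha subunit, read 8.13, 8.07 and 7.92 in knockouts and 6.36, 6.33 and 6.44 in controls at 4 °C, and 7.28, 7.68 and 7.00 in knockouts and 6.38, 6.62 and 6.43 in controls at room temperature. Knockouts were above controls on every array for both genes. Ssr3 differed by 1.68 ± 0.14 at 4 °C (3.19-fold, adjusted p = 1.02e-05) and 1.00 ± 0.14 at room temperature (2.00-fold, adjusted p = 0.00256). Ssr1 differed by 1.66 ± 0.15 at 4 °C (3.16-fold, adjusted p = 1.92e-05) and 0.84 ± 0.15 at room temperature (1.79-fold, adjusted p = 0.0132, up to 0.0594 without single arrays). Ssr2, the beta subunit, rose by 1.26 and 1.00. The delta subunit Ssr4 rose by 0.59 at 4 °C and differed by 0.29 at room temperature, where it did not pass (adjusted p = 0.216).

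All 5 signal peptidase genes were higher at 4 °C, with a median of 1.29, and 2 of 5, Spcs2 and Sec11c, were higher at room temperature, where the median was 0.74. Spcs3, an accessory subunit needed for cleavage, read 7.36, 7.46 and 7.35 in knockouts and 5.09, 5.38 and 5.92 in controls at 4 °C. At room temperature it read 6.14, 6.97 and 6.49 in knockouts and 5.87, 5.60 and 5.90 in controls. The groups did not overlap, the difference at 4 °C was 1.92 ± 0.22 (3.80-fold, adjusted p = 0.000132), and that at room temperature, 0.74 ± 0.22, did not pass (adjusted p = 0.134). Spcs3 has retrogene relatives, Arxes1 and Arxes2, so its value is uncertain, and the 2 probe sets they share did not pass in either genotype comparison. Spcs2, another accessory subunit, rose by 1.44 at 4 °C and 1.23 at room temperature. Spcs1 rose by 0.64 at 4 °C (adjusted p = 0.0334, up to 0.117 without single arrays).

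The 2 catalytic subunits of signal peptidase, Sec11a and Sec11c, serve in separate forms of the enzyme. Sec11c read 7.61, 7.17 and 7.60 in knockouts and 6.01, 5.96 and 6.55 in controls at 4 °C, and 7.40, 7.54 and 7.14 in knockouts and 6.53, 6.50 and 6.20 in controls at room temperature. Sec11a read 6.98, 7.27 and 7.04 in knockouts and 6.53, 6.07 and 6.30 in controls at 4 °C, and 6.76, 7.08 and 7.10 in knockouts and 6.64, 6.55 and 6.73 in controls at room temperature. Both were higher in every knockout array than in any control array of the same temperature. Sec11c rose by 1.29 ± 0.18 at 4 °C (adjusted p = 0.000802) and by 0.95 ± 0.18 at room temperature (adjusted p = 0.0184, up to 0.0735 without single arrays). Sec11a rose by 0.80 ± 0.14 at 4 °C (adjusted p = 0.00435) and differed by 0.34 ± 0.14 at room temperature (adjusted p = 0.314).

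**Figure D3:**
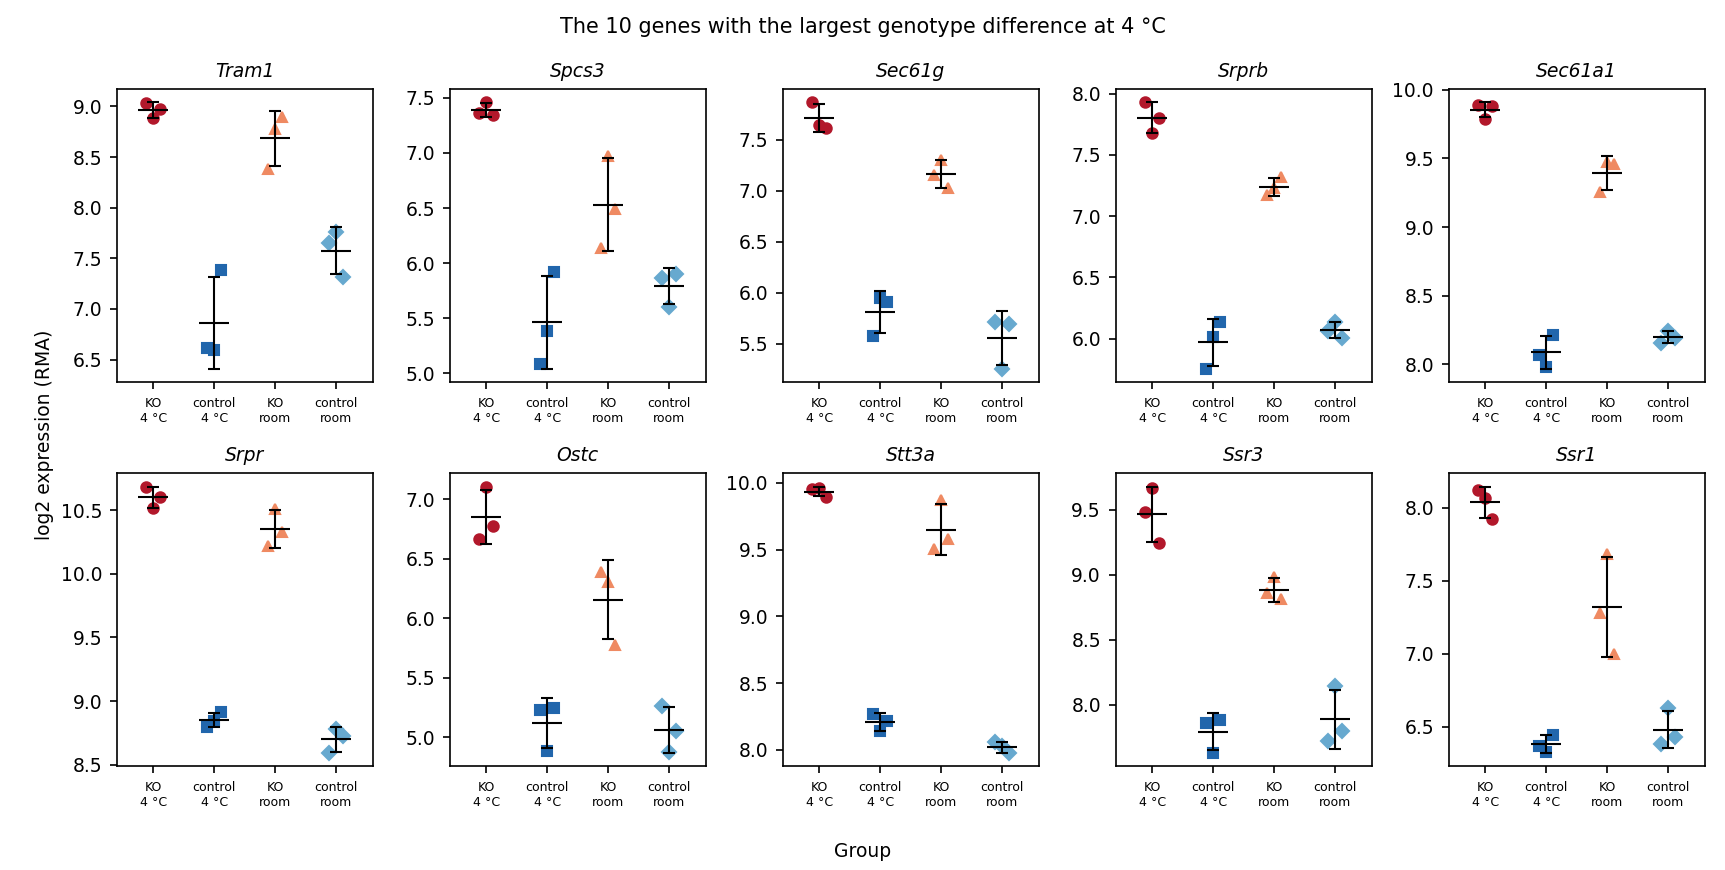
Log2 value on every array, with the mean ± SD of the 3 arrays of each group, of the 10 genes with the largest absolute difference between genotypes at 4 °C, for knockouts and controls at 4 °C and at room temperature. Knockout and control arrays do not overlap at either temperature for any of the 10, which at 4 °C follows largely from how they were chosen. Knockouts lay above controls without overlap in 11.2% of all probe sets at 4 °C and in 8.76% at room temperature. Tram1 has the largest difference, 2.10 at 4 °C.

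Oligosaccharyltransferase had 9 of 10 measured genes higher at 4 °C and 7 of 10 at room temperature, with medians of 1.35 and 0.96. Of its subunits common to both forms of the enzyme, Rpn1, which binds ribosomes and substrates, rose by 1.48 ± 0.15 at 4 °C (adjusted p = 5.2e-05) and by 1.01 ± 0.15 at room temperature (adjusted p = 0.00362). Ddost, which helps to hold the complex together, read 9.33, 9.38 and 9.51 in knockouts and 7.61, 7.74 and 7.97 in controls at 4 °C, and 8.92, 9.12 and 9.27 in knockouts and 8.19, 8.16 and 8.05 in controls at room temperature. Ddost groups were apart by 1.63 and 0.97. Rpn2 rose by 1.14 and 0.59 (at room temperature adjusted p = 0.0113, up to 0.0519 without single arrays). Dad1, first described as a defender against apoptotic cell death, showed the smallest called difference, 0.37 ± 0.09 at 4 °C (adjusted p = 0.0343, up to 0.125 without single arrays), and 0.32 ± 0.09 at room temperature (adjusted p = 0.133).

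Stt3a and Stt3b are the alternative catalytic subunits. Stt3a works on chains that are still passing through Sec61, and Stt3b on sites that were skipped. Stt3a read 9.95, 9.96 and 9.89 in knockouts and 8.27, 8.14 and 8.21 in controls at 4 °C, and 9.50, 9.87 and 9.58 in knockouts and 8.06, 8.03 and 7.98 in controls at room temperature. Its groups were far apart at both temperatures, by 1.73 ± 0.11 (3.31-fold, adjusted p = 8.61e-07) and 1.63 ± 0.11 (3.09-fold, adjusted p = 5.65e-06). Stt3b read 9.10, 9.47 and 9.15 in knockouts and 8.17, 8.22 and 8.50 in controls at 4 °C, and 8.98, 9.04 and 8.61 in knockouts and 8.22, 8.63 and 8.40 in controls at room temperature. Stt3b was apart at 4 °C, by 0.94 ± 0.16 (1.92-fold, adjusted p = 0.00304), and overlapped at room temperature, with 0.46 ± 0.16 (adjusted p = 0.21).

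Ostc and Krtcap2 are the subunits that join the Stt3a form to the translocon. Ostc read 6.67, 7.11 and 6.78 in knockouts and 5.23, 4.88 and 5.25 in controls at 4 °C, and 6.39, 6.31 and 5.77 in knockouts and 5.26, 4.88 and 5.05 in controls at room temperature. The Ostc groups did not overlap and differed by 1.73 ± 0.18 (3.32-fold, adjusted p = 6.86e-05) and 1.10 ± 0.18 (2.14-fold, adjusted p = 0.00761). Krtcap2 rose by 1.37 at 4 °C and by 0.95 at room temperature. Magt1 and Tusc3 are the alternative thioredoxin-like subunits of the Stt3b form. Magt1 read 8.79, 8.68 and 8.56 in knockouts and 7.27, 7.33 and 7.47 in controls at 4 °C, and 8.68, 8.83 and 8.72 in knockouts and 7.36, 7.26 and 7.28 in controls at room temperature. It was higher on every knockout array, by 1.32 ± 0.10 at 4 °C (adjusted p = 4.62e-06) and 1.44 ± 0.10 at room temperature (adjusted p = 8.96e-06), which made it one of 4 genes whose difference was not larger at 4 °C. Tusc3 read 7.35, 7.27 and 6.89 in knockouts and 6.10, 6.87 and 6.46 in controls at 4 °C, and 6.79, 6.26 and 6.88 in knockouts and 6.57, 8.08 and 7.37 in controls at room temperature. Tusc3 knockouts lay above controls at 4 °C and overlapped with them at room temperature, and neither difference passed (0.69 ± 0.32, adjusted p = 0.296, and -0.70 ± 0.32, adjusted p = 0.382).

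Among the other rough ER proteins, Tram1 and Rrbp1 were higher at both temperatures and Tram2 and Ckap4 at neither. Tram1, which lies beside the channel and touches the entering chain, read 9.04, 8.89 and 8.97 in knockouts and 6.61, 6.59 and 7.39 in controls at 4 °C, and 8.38, 8.78 and 8.90 in knockouts and 7.65, 7.76 and 7.31 in controls at room temperature. Its knockout and control arrays were apart at both temperatures, by 2.10 ± 0.21 at 4 °C (4.29-fold, adjusted p = 4.12e-05), the largest difference of the 36 genes, and by 1.11 ± 0.21 at room temperature (2.16-fold, adjusted p = 0.0168, up to 0.0730 without single arrays). Tram2, a relative of Tram1, read 3.18, 3.50 and 3.96 in knockouts and 4.02, 3.58 and 3.72 in controls at 4 °C, and 3.76, 4.14 and 3.42 in knockouts and 3.72, 4.04 and 3.85 in controls at room temperature. Its groups overlapped at both temperatures (-0.22 ± 0.21, adjusted p = 0.699, and -0.10 ± 0.21, adjusted p = 0.916), and the probe set was dim. Rrbp1, the ribosome-binding protein p180, rose by 1.51 ± 0.13 and 0.89 ± 0.13. Ckap4, which spaces ER sheets, was also dim, and its differences of 0.87 ± 0.27 at 4 °C (adjusted p = 0.0835) and 0.54 ± 0.27 at room temperature (adjusted p = 0.421) did not pass.

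For 5 pairs of alternative subunits or relatives, the change of the log2 ratio between genotypes was tested by an exact two-sided permutation of genotype within temperature (400 arrangements, smallest possible p 0.005), adjusted over the 5 pairs. The levels of the 2 probe sets of a pair are not comparable, so only the change of the ratio was read. Sec61a1 over Sec61a2 was higher in knockouts by 1.91 at 4 °C and 0.95 at room temperature, a mean of 1.43 (exact p = 0.005, adjusted p = 0.00625). Stt3a over Stt3b was higher by 0.78 at 4 °C and 1.17 at room temperature, a mean of 0.98 (exact p = 0.005, adjusted p = 0.00625). The ratio of Tusc3 to Magt1 was lower, with differences of -0.63 and -2.14, a mean of -1.38, and that of Tram2 to Tram1 was lower, with -2.33 and -1.21, a mean of -1.77 (exact p = 0.005 and adjusted p = 0.00625 for each). In these 4 pairs the 3 knockout and 3 control ratios did not overlap at either temperature. Sec11c over Sec11a differed least, by 0.49 at 4 °C, where the groups overlapped, and 0.61 at room temperature, a mean of 0.55 (exact p = 0.02, adjusted p = 0.02). Without knockout replicate 1 or 3 at 4 °C the Sec11c pair no longer passed, with means of 0.48 and 0.50. Tram2 is dim, which can compress its own changes.

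**Figure D4:**
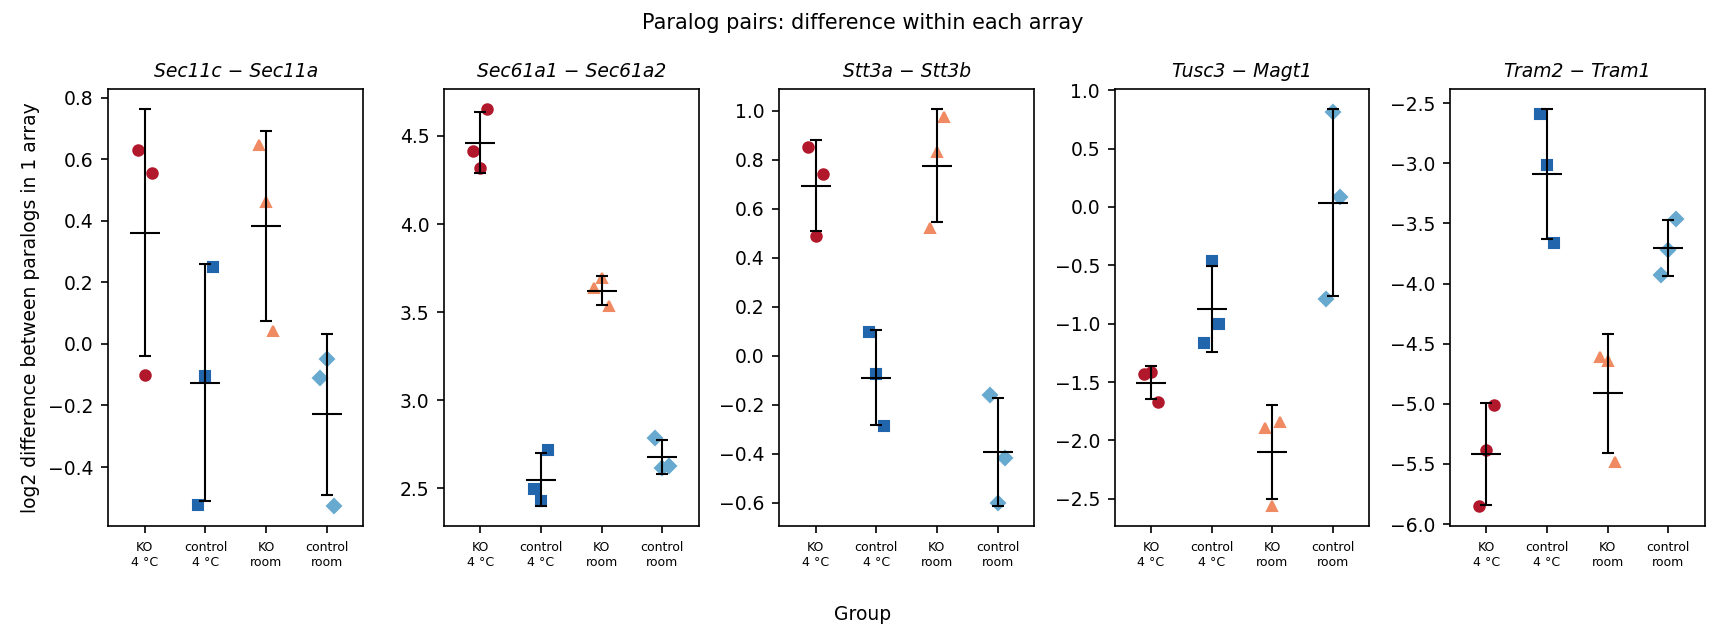
Log2 ratio of 5 pairs of related genes on every array, with the mean ± SD of the 3 arrays of each group, for knockouts and controls at 4 °C and at room temperature. Knockout and control ratios are apart at both temperatures in 4 pairs, and those of Sec11c over Sec11a overlap at 4 °C.

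In controls, cold gave few calls among these genes. Of the 36 genes, 0 were higher and 1 was lower at 4 °C than at room temperature, whereas 11.1% of all probe sets were called, 4.85% higher and 6.23% lower, and the median difference was -0.091 beside -0.010 over all probe sets. The lower gene was Tram1, with a difference of -0.71 ± 0.21 (adjusted p = 0.0457). Control replicate 3 at 4 °C, at 7.39, overlapped with the room temperature controls, and without any one of 9 single arrays the Tram1 call was lost, with 0.175 the highest adjusted p. At an unadjusted p under 0.05, 0 genes were higher and 5 lower, against 9.97% and 13.2% of all probe sets. Values did not overlap, with 4 °C above, for Srp72, Srpr and Stt3a (11.6% of all probe sets), and with 4 °C below for Sec61b, Sec11a, Rpn2 and Ddost (14.3%).

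In knockouts, 11 genes were higher at 4 °C than at room temperature and 0 lower, against 9.03% of all probe sets called, 4.32% higher and 4.7% lower, with a median of 0.32 beside -0.013 over all. At an unadjusted p under 0.05, 23 were higher and 1 lower, against 9.14% and 11.6% of all probe sets. The 11 were Sec61a1, Sec61g, Ssr1, Ssr3, Spcs3, Srp9, Srp68, Srp72, Srprb, Rpn1 and Ostc, with differences of 0.46 (Sec61a1) to 0.86 (Spcs3). For 25 genes the 3 knockout arrays at 4 °C lay above the 3 at room temperature (11.7% of all probe sets), and for Sec61a2 they lay below (14.1%). Srp68, Ssr1 and Srprb kept their calls when any single array was left out. Their differences were 0.70 ± 0.15 for Srp68 (adjusted p = 0.00984), 0.72 ± 0.15 for Ssr1 (adjusted p = 0.0104) and 0.56 ± 0.12 for Srprb (adjusted p = 0.00989). The count of higher genes was 5 without knockout replicate 1 at 4 °C, 6 without replicate 2 and 7 without replicate 3. It was 5 without knockout replicate 1 at room temperature, where Sec61a2 was called lower (-0.46, adjusted p = 0.0498), and 6 without replicate 3. Sel1l was also higher at 4 °C than at room temperature in knockouts (0.66 ± 0.14, adjusted p = 0.0124), and its part in these differences was not tested.

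**Figure D5:**
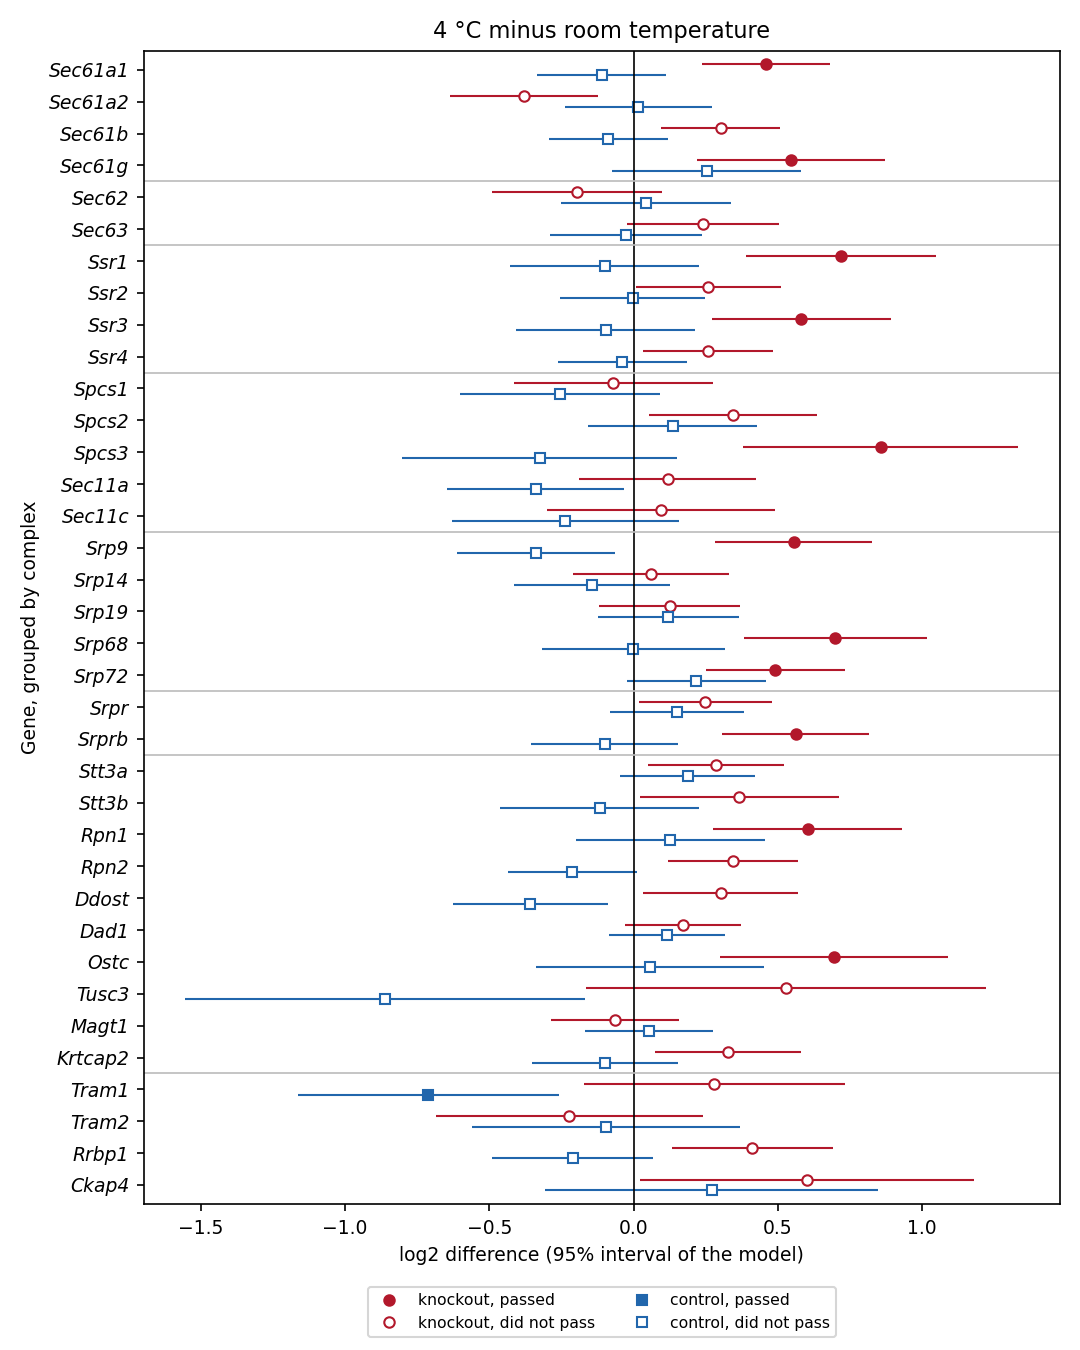
Log2 difference, 4 °C minus room temperature, for each of the 36 genes in knockouts and in controls, with the model's 95% interval, grouped by complex. Filled symbols passed the test, 11 in knockouts (all higher at 4 °C) and Tram1 in controls (lower at 4 °C).

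The difference between the cold responses of knockouts and controls was tested as an interaction, and 0 of the 36 genes passed in limma, beside 0.306% of all probe sets (0.23% higher and 0.0765% lower). The median interaction was 0.36, beside -4.1e-05 over all probe sets, and 32 of 36 were positive. At an unadjusted p under 0.05, 17 genes were higher and 1 lower, against 5.14% and 4.63% of all probe sets. Srp9 came nearest, with a cold difference of 0.55 in knockouts and -0.34 in controls, an interaction of 0.89 ± 0.18 (adjusted p = 0.064). Spcs3 had the second-largest interaction, 1.18 ± 0.31 (adjusted p = 0.16), after Tusc3 with 1.39 ± 0.45 (adjusted p = 0.289), whose controls at room temperature spread from 6.57 to 8.08. One gene was called without control replicate 3 at room temperature (Srp9), without control replicate 3 at 4 °C (Tram1) or without knockout replicate 2 at room temperature (Ssr1). So the calls found in knockouts alone were not shown to differ from those of controls.

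Neighbouring steps of the pathway were read from separate lists of genes. Of 27 measured genes that build the lipid-linked oligosaccharide, the glycan donor of oligosaccharyltransferase, 11 were higher and 0 lower in knockouts at 4 °C. At room temperature 6 were higher and 0 lower. Of all probe sets 3.61% were called higher and 2.19% lower at 4 °C, and 1.29% and 0.429% at room temperature. The medians of the 27 genes were 0.43 and 0.26, beside -0.012 and -0.0053 over all probe sets. Gmppb, a subunit of the enzyme that makes GDP-mannose, rose by 2.18 ± 0.22 at 4 °C (adjusted p = 4.07e-05). Dpagt1, which starts the glycan on its lipid, rose by 1.88 ± 0.13 (adjusted p = 2.13e-06), and Gmppa, the regulatory partner of Gmppb, by 1.71 ± 0.15 (adjusted p = 1.54e-05). Of 6 further oligosaccharyltransferase and early N-glycan genes, 4 were higher at 4 °C and 1, Mlec, at room temperature. The same shares of all probe sets apply to them. Tmem258, a small oligosaccharyltransferase subunit, rose at 4 °C by 1.20 ± 0.16, the glycan-binding protein Mlec by 1.07 ± 0.23 and Mogs, the first trimming glucosidase, by 0.65 ± 0.17.

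Other routes into the ER membrane were read in the same way. The list of 23 measured genes held the ER membrane complex, the tail-anchor insertion pathway and the multipass translocon, and also Srp54c, Tram1l1 and Snd1. Of the 23, 2 (Get4 and Snd1) were higher and 1 lower at 4 °C, where 3.61% and 2.19% of all probe sets were called. At room temperature 1, Snd1, was higher, beside 1.29% of all. The medians were 0.11 and -0.0030. Without Snd1, none of the list was called at room temperature. Get4, of the tail-anchor pathway, rose at 4 °C by 0.69 ± 0.13 (adjusted p = 0.00602), and Ncln, of the multipass translocon, fell by 0.56 ± 0.15 (adjusted p = 0.0424). Snd1 was higher at both temperatures, by 1.77 ± 0.16 at 4 °C (adjusted p = 1.32e-05) and 1.22 ± 0.16 at room temperature (adjusted p = 0.00104). The mammalian gene encodes a nuclease-domain and Tudor-domain protein and shares only its name with the yeast targeting factor for which it was listed. The lists were not tested against each other.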

How the data were processed

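Total RNA of mouse brown adipose tissue was measured on 12 whole-transcript arrays. The authors deposited 1 table of log2 expression values for 41345 probe sets, made with RMA per the submitters' processing notes. This method corrects background, quantile-normalizes arrays and summarises probes. Its version was not found in those notes. Values ran from 0.27 to 13.02, and 0 columns stayed unmapped. RMA understates differences near background, and the number of arrays limits the precision. The design text speaks of brown adipocytes and the sample labels of the tissue.

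Of the probe sets, 23521 carried 1 symbol in the platform annotation, 1814 several and 16010 none. In R 4.3.3, limma 3.58.1 estimated 1 mean for each group from the 12 arrays jointly (functions lmFit, contrasts.fit and eBayes), with 8 residual degrees of freedom, a prior of 4.45 and a median SE of 0.14. P-values were adjusted by Benjamini-Hochberg over the 23521 probe sets and called under 0.05. The fit was tested on simulated data. Errors after ± are model SEs with n = 3 arrays per group. Full values are given for the 10 genes with the largest absolute difference at 4 °C, genes called in the interaction and both genes of each related pair. Per-array values of Srp9, Srp68, Ddost and Sec62 were added after their values were seen. From each neighbouring list, the 3 called genes with the largest difference at 4 °C are named. Members and lists were chosen with earlier results of these data known. Protein sequences were not used here.

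Alternatives left out each array, fitted only the arrays compared, and used a replicate block, the doubtful label moved, a muscle covariate, a brightness filter, all probe sets, array centring, a variance trend, array weights and the mean over probe sets.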

Additional observations from a re-analysis of the deposited data

How the results depend on the processing

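Over 4084 recomputed results of single genes, 3942 kept their direction and their side of the threshold, 131 lost the call, 11 gained one and 0 reversed. Most of these results were not called in the main fit and had no call to lose, so the share lost among called results was larger. Srp19 at room temperature lost its call in 18 of 22 alternatives. At 4 °C the count of 31 genes stayed between 27 and 32 without single arrays, and the median of 1.27 between 1.18 and 1.36, and the median was 1.20 with the mean over a gene's probe sets. At room temperature the count of 22 was 15 to 22 without single arrays, 14 with the doubtful control array moved to 4 °C and 14 with the muscle covariate. The median of 0.72 there was 0.62 to 0.81 without single arrays, 0.81 with that array moved and 0.84 without the 3 genes dimmer than 4, an alternative chosen after seeing the data. In the cold comparison of controls the count of 1 was 0 to 2 without single arrays and 0 with only the 6 arrays compared, the replicate block, the array moved, the muscle covariate or all probe sets tested, and the median was -0.10 to -0.019 without single arrays. In the cold comparison of knockouts the count of 11 was 5 to 11 without single arrays and 7 with all probe sets tested. The interaction count of 0 was 0 to 1 without single arrays and 1 with the array moved (Srp9, adjusted p = 0.0458), and its median of 0.36 was 0.35 to 0.44 without single arrays and 0.43 without the dim genes. Of the ratios, Sec11c over Sec11a was 0.45 to 0.67 without single arrays. The causes were not tested.

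Replicate numbers are shared between groups, but same-numbered arrays did not deviate together (correlations from -0.18 to 0.16), so the samples share only a number. With the replicate block 21 genes were called at room temperature, 30 at 4 °C, 10 in the cold comparison of knockouts and 0 in the interaction. Brightness limits Sec61b, Ckap4 and Tram2, whose means were 2.07, 3.13 and 3.74.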

Other observations

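Values outside the counts concern listed genes without a probe set of their own symbol. The brighter of 2 H13 probe sets, which carry the older symbol of Hm13, the signal peptide peptidase that clears cleaved signal sequences from the membrane, read 8.64, 8.58 and 8.63 in knockouts and 7.27, 7.30 and 7.25 in controls at 4 °C, and 8.20, 8.13 and 8.12 in knockouts and 7.57, 7.36 and 7.44 in controls at room temperature. The groups did not overlap, and the limma differences were 1.34 ± 0.09 (adjusted p = 1.7e-06) and 0.69 ± 0.09 (adjusted p = 0.00154). In knockouts H13 was 0.46 higher at 4 °C than at room temperature (adjusted p = 0.00752). The other, dimmer H13 probe set differed by -0.032 at 4 °C and -0.011 at room temperature and did not pass.

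Srp54, the SRP subunit that binds the signal sequence, was read by 2 probe sets shared by Srp54a, Srp54b and Srp54c. The first read 10.70, 10.63 and 10.46 in knockouts and 9.80, 9.98 and 9.93 in controls at 4 °C, and 10.11, 10.36 and 10.39 in knockouts and 9.36, 9.37 and 9.47 in controls at room temperature. Knockouts lay above controls at both temperatures, by 0.69 and 0.89, and controls at 4 °C above controls at room temperature, by 0.51 ± 0.11 (adjusted p = 0.0238 in limma over all probe sets). On the probe sets used, no cold rise of this size was seen in controls among the 36 genes, where the highest was 0.27. The dimmer probe set that Sec61g shares with 4 predicted genes did rise in controls in the cold. Its difference was 0.57 ± 0.14 (adjusted p = 0.0354 in limma over all probe sets).

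Second, dimmer probe sets gave their own values. Another Ssr1 probe set differed by 1.64 ± 0.19 at 4 °C and 0.62 ± 0.19 at room temperature, beside 1.66 and 0.84 in the one used. Another Spcs2 probe set differed by 0.69 ± 0.28 and 0.75 ± 0.28, beside 1.44 and 1.23, and did not pass. Another Sec61b probe set, with a mean of 1.45, differed by 0.38 ± 0.11 at 4 °C (limma adjusted p = 0.0794) and 0.071 ± 0.11 at room temperature (adjusted p = 0.876), beside 0.90 and 0.51, and did not pass.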
